A study of Mus musculus with 5 samples.

Results

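The circular RNAs (circRNAs) described here come from 10 genes of the sperm flagellum, most of them coding for parts of its central apparatus: Hydin, Spag6, Spag16, Spag17, Spef2, Cfap43, Cfap44, Cfap69, Cfap70 and Armc2. They were taken by gene symbol, with earlier results of these data known, and they make up 72 of the 11957 circRNAs in the deposited table. Of the 10 genes, 9 had at least 1 circRNA, and Cfap44 had none listed. Spag16 and Hydin gave the highest levels, with 17 and 19 circles, and 5 circles of Hydin, Spag16 and Spag17 were listed at 0 in a single library, control 1, and above 0 in the other 4. No circRNA of the set passed the test for a difference after triptolide, but that test recovered 0 of 200 simulated 4-fold changes. A non-coding locus antisense to Hydin was 1.66-fold higher, a call that was lost when control 1, triptolide A or triptolide B was left out.

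The libraries were made from whole testis of male C57BL/6J mice whose age the labels give as 10 weeks. Triptolide, a diterpenoid of the vine Tripterygium wilfordii known for harming male fertility, was given by gavage to 6 mice at 50 µg per kg of body weight each day, and 6 control mice got saline by the same labels. Testes were collected at 35 days, ribosomal RNA was depleted from total RNA, and directional libraries were read as pairs of 150 bases. There were 2 control and 3 triptolide libraries. Nothing in the labels ties a library to 1 mouse or to a pool, so each p-value below speaks only to the spread between libraries. For circRNAs, 3 columns carry the same triptolide header, so they are called triptolide A, B and C. Fewer cells of a type and less RNA per cell cannot be told apart in such bulk samples.

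A motile flagellum has a ring of doublet microtubules around a central pair, and the central pair carries protein projections that touch the radial spokes and so take part in setting the rhythm of the dynein motors. Hydin, Spag6, Spag16, Spag17 and Spef2 are proteins of these projections, Cfap43 and Cfap44 form a tether of the inner dynein arms, and loss of Cfap69, Cfap70 or Armc2 gives short or irregular sperm tails. A circRNA arises when the end of an exon is spliced back to the start of an exon upstream of it, and testis is rich in circRNAs from long genes. Regulatory factor X (RFX) proteins are known switches of ciliary genes and bind a near-palindromic motif called the X-box.

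The promoter sequences of Hydin and Spag16, the hosts of the most abundant circles, are shown because both hold such a motif. Each line gives 250 bases upstream of the start site in RefSeq's GRCm38.p6 table, on the plus strand, with the match to the X-box in capitals. The Hydin stretch is chr8:110266727-110266976 and the Spag16 stretch is chr1:69826720-69826969.
Hydin: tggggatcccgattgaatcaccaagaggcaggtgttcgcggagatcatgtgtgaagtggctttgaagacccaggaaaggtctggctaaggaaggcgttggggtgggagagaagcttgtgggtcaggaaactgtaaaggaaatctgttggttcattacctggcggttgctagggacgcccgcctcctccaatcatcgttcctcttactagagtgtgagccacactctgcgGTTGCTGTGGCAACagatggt
Spag16: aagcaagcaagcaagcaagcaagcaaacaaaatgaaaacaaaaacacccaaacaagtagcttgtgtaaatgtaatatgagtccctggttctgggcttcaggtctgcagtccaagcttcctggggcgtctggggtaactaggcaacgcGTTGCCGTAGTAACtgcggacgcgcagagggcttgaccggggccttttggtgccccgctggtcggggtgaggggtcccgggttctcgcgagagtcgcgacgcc
The pattern searched was the half-site GTNNCC, any 3 bases and the half-site GNAAC, on both strands, in windows from 250 bases before to 50 after the start site. It was found in 4 of the 9 genes of the set with a window in the table, and in 714 of all 32851 windows (2.2%). In Hydin the match GTTGCTGTGGCAAC lay at -21 to -8 from the start site (chr8:110266956-110266969), and in Spag16 GTTGCCGTAGTAAC lay at -103 to -90 (chr1:69826867-69826880). Cfap44, the gene without a listed circle, held GTTGCTATGGCAAC at -27 to -14 (chr16:44394772-44394785). The Spag6 family gene on chromosome 16 held GTTGCCCTGGAGAC at 34 to 47, downstream of its start (chr16:16829316-16829329, minus strand). The shorter half-site GTTGCC, which overlaps the X-box pattern, was in 5 of the 9 windows against 12.5% of all. The CCAAT box was in 3 of 9 against 37.4%, and the cyclic AMP response element TGACGTCA was in 1 of 9 against 1.79%. A match describes letters and is not evidence that a factor binds there.

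Circle levels are given in SRPBM, the authors' score of reads across a back-splice junction relative to all mapped reads. A read was worth 8.26 to 9.54 SRPBM, and the libraries held 32810 to 44330 junction reads in all, of which 184 (control 1) to 387 (triptolide B) came from the set. The smallest value listed was 16 SRPBM, or 2 reads. No label or header says what a 0 means, so a 0 is reported as listed and no upper limit is put on it. Control 1 stood apart in the whole table: 107 circRNAs with a mean of at least 100 SRPBM in the other 4 libraries were at 0 in control 1 alone, against 1 to 3 for each of the other libraries. Defining markers of ciliated duct epithelium were nearly absent among the hosts (1 of 10 listed, and no circle of Foxj1), as were those of epididymis (0 of 8), but so were those of resident testis cells: Sertoli cells 0 of 10, Leydig cells 1 of 8, and endothelium, smooth muscle and fibroblasts 0 of 10. Meiotic spermatocyte markers were present as hosts (12 of 16 genes, summed at 3080 to 4248 SRPBM); of the 11 tested, 9 were lower and 2 higher in triptolide libraries, with a median log2 difference of -0.31 against -0.08 over all hosts, and 0 were called. Also present were 3 of 16 spermatid markers, Crem, Prm2 and Odf2. The spermatid markers summed to 1018 and 1022 SRPBM in control 1 and 2, above the 542, 879 and 528 of triptolide A, B and C, but 2 of the 3 hosts were higher and 1 lower in triptolide libraries (median log2 difference 0.16). Of 8 immune markers 2 were hosts, Mrc1 and Adgre1. They summed to 17 and 16 SRPBM in the controls, at the lower limit of listing, below the 66, 96 and 69 of the triptolide libraries. No spermatid or immune host was called. Over all single hosts tested, every triptolide library lay above both controls for 7.13% and below both for 11.5%. The part of these cell types in the values below was not tested.

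Most circles of the set were thinly covered. Of the 72, 40 (55.6%) were above 0 in 1 library only, close to the 54.4% over all circRNAs, and 9 (12.5%) were above 0 in all 5 libraries against 11.7% of all. All 72 lay inside their host gene in RefSeq. They spanned 966 to 229002 bases of genome with a median of 25074, against a median of 16118 for all circRNAs. Which exons each circle holds was not analysed here. An end was shared with another circle of the same gene by 57 of the 72 (79.2%), near the 81.4% among circRNAs of all hosts with 2 or more.

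Spag16, a WD-repeat protein of the central apparatus, gave the highest summed level of the 9 hosts and ranked 33rd of 3496 host genes. Its 17 circles summed to 638 and 1676 SRPBM in control 1 and 2, and to 1392, 1564 and 1032 in triptolide A, B and C. Control 1 was the lowest library and control 2 the highest, so the groups overlapped. The means were 1157 ± 734 (SD, n = 2) and 1329 ± 271 (SD, n = 3), a log2 difference of 0.33 ± 0.40 (SE) with a limma adjusted p of 0.92. The circles clustered at the 5′ side of the gene: 6 began at chr1:69858473 and together held 63.7% of its circRNA signal, and 4 ended at chr1:69896581.

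The most abundant circle of the set was chr1:69858473-69896581 of Spag16. It was listed at 0 in control 1, 720 SRPBM (87 reads) in control 2, with 707, 593 and 409 in triptolide A, B and C. Both of its ends were used by other circles in control 1: chr1:69858473-69887558 was at 175 there, and at 223, 248, 301 and 209 in the other libraries in order. The circle chr1:69842969-69896581, which shares the other end, was at 237 and 290 in control and at 143, 248 and 121 in triptolide libraries. Junction reads at the same coordinates were thus listed in control 1 for the neighbours and not for the joint of the pair. A longer Spag16 circle, chr1:69842969-69996908, showed the same listing, with 0 in control 1, 165 in control 2, with 114, 159 and 60 in triptolide libraries. The circle chr1:69858473-69996908, which shares its far end, was listed in control 1 alone, at 61 SRPBM (7 reads).

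Hydin, a very large protein of a central pair projection whose loss causes hydrocephalus, ranked 65th of the 3496 hosts. Its 19 circles summed to 418 and 800 SRPBM in control and to 705, 1083 and 519 in triptolide libraries. Control 1 was again the lowest and control 2 lay among the triptolide values. The means were 609 ± 270 (SD, n = 2) and 769 ± 287 (SD, n = 3), and the log2 difference was 0.34 ± 0.39 (SE; limma adjusted p = 0.92). As in Spag16 the signal sat near the first circle end, with 5 of 19 circles beginning at chr8:110298075 and holding 65.9% of it.

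The leading Hydin circle, chr8:110298075-110309197, held 54.8% of the gene's signal. It was listed at 0 in control 1, 546 SRPBM (66 reads) in control 2, with 392, 690 and 304 in triptolide A, B and C. A second circle from the same start, chr8:110298075-110312285, was at 0 in control 1 and at 33, 76, 26 and 17 in the others. Control 1 did list 3 other circles from that start, ending at chr8:110334816, chr8:110355154 and chr8:110326551, at 17, 52 and 26 SRPBM. The second most abundant Hydin circle, chr8:110456500-110462750, shared no end with them and was even across libraries, at 158 and 116 in control against 124, 141 and 104 in triptolide libraries (log2 difference -0.13 ± 0.37, SE).

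**Figure D1:**
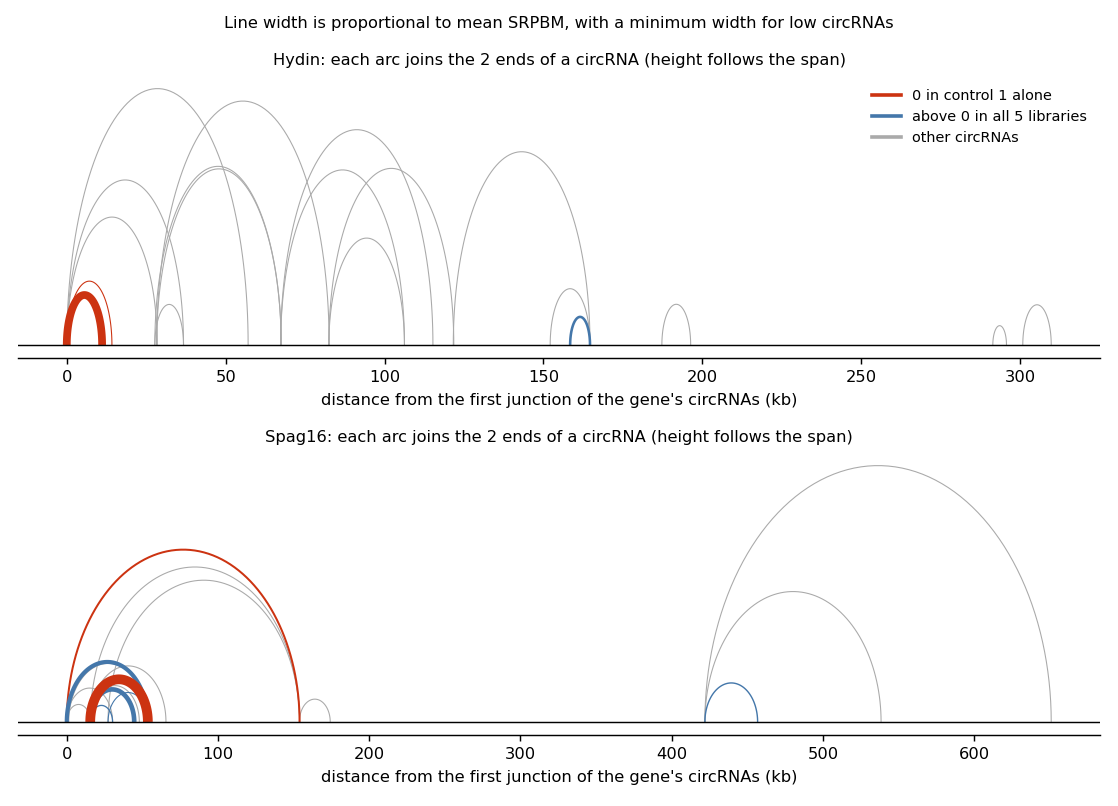
Circles of Hydin (19) and Spag16 (17) drawn as arcs over distance in kb from the first circle end of each gene. Line width follows the mean SRPBM over 5 libraries, and red arcs are those listed at 0 in control 1 alone. The thickest arc of each gene is red, and in Spag16 it shares its ends with blue arcs that were above 0 in all 5 libraries.

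Spag17, a protein of another central pair projection, supplied the fifth circle at 0 in control 1 alone, chr3:100119515-100125442. It was at 41 SRPBM in control 2 and at 19, 44 and 34 in triptolide libraries, or 2 to 5 reads. Its end was shared with chr3:100100242-100125442, which was at 43 and 16 in control and at 0, 53 and 43 in triptolide libraries. All 7 Spag17 circles summed to 112, 122, 19, 157 and 103 SRPBM in library order, with triptolide A lowest. The group difference of -0.57 ± 0.69 (log2, SE) was smaller than its error.

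**Figure D2:**
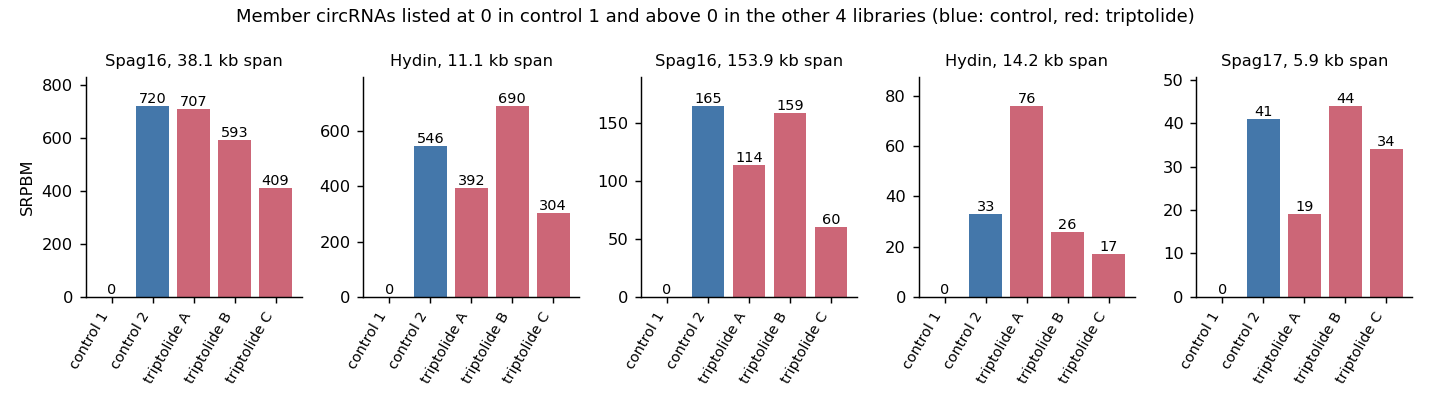
SRPBM in each library of the 5 member circRNAs listed at 0 in control 1 and above 0 in the other 4 libraries. Control 2 lies within or beside the triptolide range in each panel, and the panels have their own axes.

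Among circRNAs above 0 in the 4 libraries other than control 1, 5 of 14 in the set (35.7%) and 383 of 1787 in the whole table (21.4%) were at 0 in control 1. With a mean of at least 100 SRPBM in those 4 libraries the counts were 3 of 6 and 107 of 585 (18.3%). The corresponding count for the set was 0 to 2 when any of the other 4 libraries took the place of control 1, and 0 at the level of 100 SRPBM. Of the 107 circRNAs of the whole table, 2 had a control 1 junction within 20 bases at both ends. The 5 circles held 50.2% of the set's SRPBM in control 2, and in triptolide A, B and C they held 52.0%, 44.4% and 39.8%.

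The differences of these circles moved with the inclusion of control 1. With all libraries, the leading Spag16 circle was 2.40 ± 1.32 higher on the log2(SRPBM + 16) scale (SE; limma adjusted p = 0.68) and the leading Hydin circle 2.25 ± 1.26 (limma adjusted p = 0.68). Without control 1 the differences were -0.36 and -0.32. Without control 2, which leaves control 1 alone to stand for saline, they were 5.16 and 4.82. The 5 circles were marked for a 0 in control 1 alone, so shifts in both directions follow from that choice and test nothing. The longer Spag16 circle moved from 1.16 to -0.59 without control 1, and to 2.91 without control 2. For the Spag17 circle the value went from 0.64 to -0.27 without control 1. The other Hydin circle of the 5, chr8:110298075-110312285, did not turn: it was at 0.85 with all libraries, 0.04 without control 1 and 1.65 without control 2. Without these 5 circles the host sums became 418 and 221 in control against 237, 367 and 198 in triptolide libraries for Hydin, and 638 and 791 against 571, 812 and 563 for Spag16. The log2 differences then turned to -0.22 ± 0.40 and -0.15 ± 0.28 (SE). The circles removed were picked for a 0 in a control library, so this step by its construction moves the difference down.

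The set as a whole followed the same course. Its share of all circRNA SRPBM was 0.458% in control 1 and 0.835% in control 2, while triptolide A, B and C had 0.806%, 0.874% and 0.677%. The means were 0.647% ± 0.266 (SD, n = 2) and 0.786% ± 0.10 (SD, n = 3). Without the 5 circles the shares were 0.458% and 0.416% against 0.387%, 0.486% and 0.407%, and the means were 0.437% ± 0.030 and 0.427% ± 0.052. The 5 circles were picked for a 0 in control 1, so removing them by construction lowers every library but that one. The 9 circles above 0 in every library gave 0.288% ± 0.025 and 0.276% ± 0.018. In each of these forms the difference between groups was smaller than the SD of the control libraries.

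**Figure D3:**
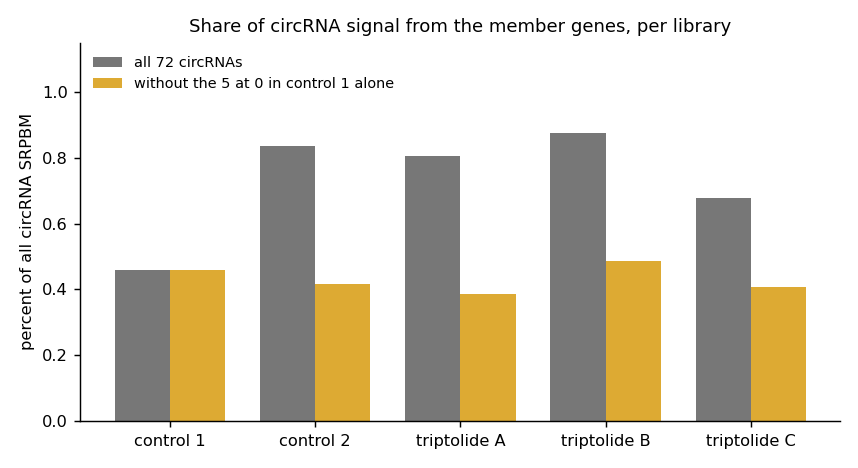
Percent of all circRNA SRPBM that came from the 10 genes in each library, for all 72 circRNAs (grey) and without the 5 listed at 0 in control 1 alone (yellow). Control 1 is the lowest grey bar at 0.458%, and the yellow bars lie between 0.387% and 0.486%. Leaving out the 5 lowers every library but control 1 by construction.

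Over all circRNAs, 5457 were above 0 in at least 2 libraries and were tested, and 0 passed an adjusted p of 0.05 with limma (0% called). In simulated data this limma fit recovered 0 of 200 circRNAs changed 4-fold, so its count of 0 does not show that nothing changed. An unadjusted p under 0.05 was reached by 360 of the tested circRNAs (6.6%), and edgeR on the recovered reads called 0 of the 952 it tested. Of the set, 32 of 72 were tested: 17 were higher and 15 lower in triptolide libraries, 3 had an unadjusted p under 0.05, and 0 were called. Their median log2 difference was 0.04 against -0.06 over all tested. Without control 1 the counts were 14 higher and 15 lower, with a median of -0.03 against -0.19 over all. The groups did not overlap for 1 of the 32 in the direction of triptolide higher, where 6.78% of all tested circRNAs did, and for 2 of the 32 in the other direction, where 10.5% did.

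Those 3 circles came from Spef2, Cfap43 and Armc2, and all rested on few reads. Spef2, a central apparatus protein also needed for sperm head shaping, had chr15:9704373-9717637 at 96 and 99 SRPBM in control and at 28, 35 and 34 in triptolide libraries, or 11 and 12 reads against 3 or 4. The log2 difference was -1.23 ± 0.48 (SE; limma adjusted p = 0.68). The other main Spef2 circle, chr15:9625972-9653073, was at 35 and 91 in control and at 133, 132 and 34 in triptolide libraries, so the gene's sum differed little: 166 and 214 against 161, 202 and 94. A form of it ending 12 bases earlier, chr15:9625972-9653061, was listed only in control 1, at 35 SRPBM, which puts the pair at 70 SRPBM there.

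Cfap43, part of the inner dynein arm tether, had chr19:47745444-47766030 at 0 in control 1 and control 2, whereas triptolide A, B and C had 28, 44 and 26 SRPBM, or 3 to 5 reads. The log2 difference was 1.59 ± 0.66 (SE; limma adjusted p = 0.68). The leading Cfap43 circle, chr19:47823029-47835817, was at 0 and 16 in control and at 76, 70 and 0 in triptolide libraries, and its end was shared by 5 of the gene's 8 circles. Summed over the gene, Cfap43 was at 60 and 16 SRPBM in control and at 123, 148 and 69 in triptolide libraries. The groups did not overlap, and the log2 difference was 1.34 ± 0.60 (SE; limma adjusted p = 0.76). It was 1.96 without control 1 and 0.71 without control 2.

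Armc2, an armadillo-repeat protein needed for the central pair of the sperm tail, was the steadiest of the low hosts. Its main circle, chr10:41947896-41975457, held 83.1% of the signal and was at 96, 66, 76, 79 and 87 SRPBM in library order, with a log2 difference of 0.01 ± 0.42 (SE). A shorter circle with the same end, chr10:41963639-41975457, was at 17 and 24 in control and at 0 in all triptolide libraries, which is 2 and 3 reads against none listed. The gene's sum was 113 and 114 in control against 76, 79 and 104 in triptolide libraries (log2 difference -0.35 ± 0.43, SE; limma adjusted p = 0.92).

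The remaining hosts lay near the lower limit of listing. Cfap69, a central apparatus protein of sperm tails, summed to 17 and 57 SRPBM in control and to 38, 78 and 43 in triptolide libraries over 6 circles. Its leading circle, chr5:5593772-5619069, was at 17 and 24 in control and at 0, 26 and 0 in triptolide libraries. Cfap70, a ciliary protein with tetratricopeptide repeats, summed to 35 and 0 in control and to 0, 43 and 104 in triptolide libraries, and chr14:20412347-20424464 made up 81.3% of it, at 35, 0, 0, 26 and 87. The 2 circles under the symbol Spag6 lie on chromosome 16, where RefSeq places Spag6l, and the leading one, chr16:16766969-16781918, was at 43 in control 1, 26 in triptolide B and 0 elsewhere. The file gives the symbol Spag6l to the chromosome 2 gene that RefSeq calls Spag6, whose only circle, chr2:18731940-18745604, was at 43 in control 1 and 0 elsewhere.

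**Figure D4:**
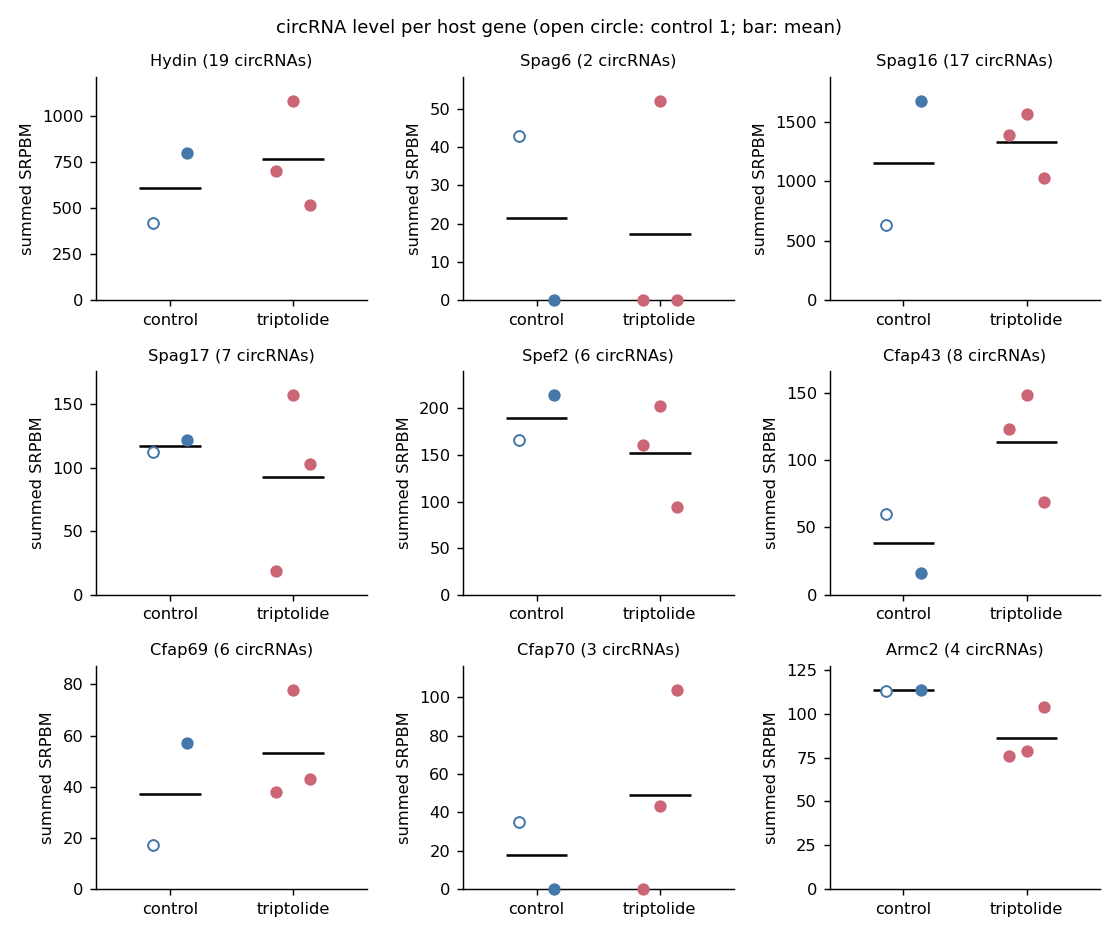
Summed SRPBM per host gene in the 2 control and 3 triptolide libraries, 1 panel per gene, with the bar at the group mean. The open point is control 1, which is lowest for Spag16, Hydin and Cfap69, and the groups do not overlap for Cfap43 and Armc2.

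By summed level, 9 hosts of the set were tested among 2342 host genes, of which 0 (0%) were called with limma and 147 (6.28%) had an unadjusted p under 0.05. In simulated data this fit recovered 71 of 200 host genes changed 4-fold. Of the 9, 5 were higher and 4 lower, with a median log2 difference of 0.33 against -0.08 over all hosts. Without control 1, 8 could be tested, 2 were higher and 6 lower, and the median was -0.24 against -0.14. The groups did not overlap for 1 of 9 with triptolide higher (7.13% of all hosts) and for 1 of 9 with triptolide lower (11.5%). The hosts outside the set whose profile over the 5 libraries came closest to that of the summed set were Pibf1 (95, 195, 171, 201 and 137 SRPBM; root mean square log2 difference 0.08), Psd3 (0.10) and Cntln (0.12), out of 619 compared. All 3 were lowest in control 1, which follows from how they were picked, since the summed set was lowest there too.

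Other genes of the axoneme were also not called, and their directions were mixed. Among other central apparatus genes, 4 hosts were tested, 3 higher and 1 lower, with a median log2 difference of 0.43. Cfap54, a protein of a central pair projection, was at 149 and 221 SRPBM in control and at 341, 255 and 336 in triptolide libraries, without overlap (log2 difference 0.71 ± 0.33, SE; limma adjusted p = 0.77). Every triptolide library lay above both controls for 7.13% of all hosts tested. Kif9 was at 35 and 97 in control and at 94, 175 and 17 in triptolide libraries. Cfap221, of the same apparatus, was at 0 in control 1, 115 in control 2, with 86, 44 and 43 in triptolide libraries. Radial spoke genes were 2 higher and 2 lower of 4 (median 0.02), led by Cfap61 at 1423 and 966 in control against 648, 971 and 687 in triptolide libraries. The nexin-dynein links and ruler were 3 higher and 3 lower of 6 (median -0.03), and doublet microtubule genes 1 higher and 2 lower of 3 (median -0.15).

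Axonemal dyneins, the motors that the central apparatus regulates, gave far more circRNA signal than the set itself. Of 12 tested hosts, 5 were higher and 7 lower, with a median of -0.26. Dnah8, an outer arm heavy chain of the sperm tail, had 51 circles that summed to 3076 and 2565 SRPBM in control and to 2000, 3141 and 2048 in triptolide libraries. Dnah7a was at 1880 and 2654 in control against 2227, 3280 and 2205 in triptolide libraries. Dnah7c was at 873 in control 1 and 2425 in control 2, against 2030, 2490 and 1804 in triptolide libraries. Control 1 was the lowest library for both. Dnah7b was at 1872 and 1882 in control, above the 1584, 1812 and 1292 of the triptolide libraries, an order seen for 11.5% of all hosts tested. Outer dense fibre and fibrous sheath genes were 3 higher of 3 (median 0.33), and genes of intraflagellar transport 4 higher and 4 lower of 8 (median -0.04). The leading transport host, Dync2h1, was at 1409 and 1078 in control and at 854, 996 and 805 in triptolide libraries, so control 1 was its highest library.

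The lncRNA table gave a readout at the same genes that the choice of circles by symbol did not use, though earlier results of these data were known. It held 11 lncRNA loci that carry the symbol of a gene of the set or lie on it, and 5 had counts high enough to test. Among all 6888 loci tested with edgeR, 501 (7.27%) were called, 345 higher (5.01%) and 156 lower (2.26%), and 21.7% had an unadjusted p under 0.05. Of the 5, 1 was called. Here 2 columns share a triptolide header and are called A and B, and they need not be the same animals as A and B above.

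The called locus, XLOC_185428, is assembled on the minus strand at chr8:110491524-110504117, inside Hydin and antisense to it, with 11 transcripts that the authors do not list as known lncRNAs. Its counts were 259 and 336 in control, 503 and 590 in triptolide A and B, and 371 in triptolide 3. Every triptolide library lay above both controls, as for 19.7% of all loci tested, while 18.3% lay the other way. In CPM, which scales a count to the lncRNA total of its library, the levels were 291 ± 32 (SD, n = 2) and 483 ± 107 (SD, n = 3), a 1.66-fold difference. The log2 fold change was 0.73 ± 0.20 (SE) with an edgeR adjusted p of 0.024. With control 1 left out it was 0.60, with triptolide A left out 0.64 and with triptolide B left out 0.65, at edgeR adjusted p-values of 0.19, 0.14 and 0.051, so each of these libraries was needed for the call. The direction stayed the same in all of them.

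No label or header gives the strand setting of the authors' counting, and without it Hydin reads may be counted at this locus. The transcript of the locus with the highest expected counts, TCONS_00313231 at chr8:110495369-110502102, had expected counts of 135 and 141 in control and of 207, 241 and 179 in triptolide A, B and 3. A single Hydin circle overlapped the locus, chr8:110485370-110494428, and it was listed only in circRNA library triptolide A, at 28 SRPBM. The abundant Hydin circles lie outside the locus, and the Hydin circle sum was not called, as given above. Circle levels do not measure Hydin mRNA, so whether Hydin reads were counted at the locus was not tested.

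**Figure D5:**
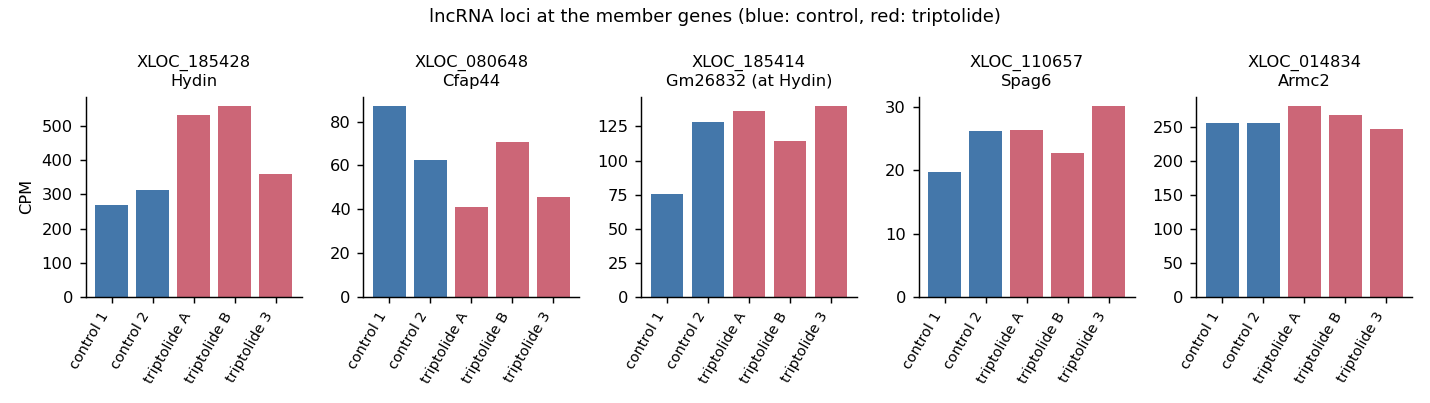
CPM of the 5 tested lncRNA loci on the genes of the set in the 2 control (blue) and 3 triptolide libraries (red), each panel with its own axis from 0. At XLOC_185428, inside Hydin, all triptolide bars are above both control bars, and the other 4 loci were not called.

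Cfap44, which had no circle, carried the antisense locus XLOC_080648 at chr16:44429687-44481901. Its counts were 84 and 67 in control against 39, 75 and 47 in triptolide A, B and 3. The level was 74.8 ± 17.3 CPM (SD, n = 2) against 52.6 ± 16 (SD, n = 3), and the log2 fold change of -0.50 ± 0.28 (SE) was not called (edgeR adjusted p = 0.31). The locus antisense to Armc2, XLOC_014834 at chr10:42018167-42048562, was even, at 256 ± 0.12 and 265 ± 17.2 CPM (log2 fold change 0.05 ± 0.19, SE; edgeR adjusted p = 0.91). At the start of Hydin, Gm26832 (XLOC_185414) was at 75.7 and 128 CPM in control and at 136, 114 and 140 in triptolide libraries, a log2 fold change of 0.35 ± 0.24 (SE; edgeR adjusted p = 0.43) that was 0.0041 without control 1 and 0.82 without control 2. The locus XLOC_110657, at the chromosome 2 gene, was at 22.9 ± 4.6 and 26.4 ± 3.7 CPM. The 6 loci not tested, on Spag17, Cfap69, Cfap70 and the chromosome 2 gene, had 0 to 10 counts in each library.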

How the data were processed

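Total RNA of mouse testis was examined in 2 control and 3 triptolide libraries. The submitters' processing notes name bedtools 2.17.0, HTSeq 0.6.1, HISAT2 2.0.1 and DESeq without saying what each did, and a human build; coordinates are printed as the files give them, and RefSeq's mouse GRCm38.p6 table served for names, containment and promoters. circRNA values are a score the authors deposited, SRPBM by its name, rounded to whole numbers; 97.6% to 98.9% of values above 0 lay within 0.1 of a whole read. lncRNA values are expected counts, as the authors' headers state. They were summed per locus and rounded; the 5 FPKM columns, and the mRNA table, whose IDs carry no gene names, were not used.

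circRNAs and host sums had to be above 0 in 2 or more libraries and were then fitted by limma 3.58.1 (trend, R 4.3.3) on log2(SRPBM + 16), which understates the change of low values. Loci were tested with edgeR 4.0.16 (filterByExpr, TMM, quasi-likelihood; standard errors from the F statistic), with DESeq2 1.42.0 as an alternative. Adjustment was by Benjamini-Hochberg over the whole table at 0.05. Total lncRNA counts were 947298 to 1071012 per library. In simulated data, 4-fold changes were recovered for 0 of 200 circRNAs and 71 of 200 host genes by limma, for 144 of the 156 circRNAs tested by edgeR on whole reads, and for 200 of 200 loci. The changed features were drawn from those with the highest means, so recovery at low levels was not simulated.

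The members, gene lists and tests were chosen with earlier results of these data known. Named were the leading circle of each gene and circles at 0 in control 1 alone. Up to 5 circles per direction whose groups did not overlap were also named, as were the 3 hosts most like the set. Every tested locus at a member gene and the leading genes of some pathway lists were named too. The other circles sharing an end with named circles, the second Hydin circle, and the called locus's transcript with the highest counts were named after their values were seen. Alternatives covered the pseudocount, filters, scaling, the tool and each library left out.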

Additional observations from a re-analysis of the deposited data

How the results depend on the processing

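No circRNA and no host gene was called with a pseudocount of 8 or 32, after scaling to the circRNA total, or with edgeR on recovered reads. Without the filter on low values, limma called 36 circRNAs and 1 host gene, and the leading Hydin and Spag16 circles passed (limma adjusted p = 0.0010 and 7.5e-05). Both circles had been marked for a 0 in control 1, and without that library their log2 differences were -0.32 and -0.36. With circRNAs above 0 in all libraries, 1 was called. Leaving out each library in turn gave 0 to 130 called circRNAs (2 without control 1, 130 without control 2), 0 to 48 host genes (1 and 48) and 269 to 588 lncRNA loci (269 without control 1, 279 without triptolide A, 269 without triptolide 3), and the difference in the set's share ran from -0.049 to 0.327 percentage points, the first without control 1 and the second without control 2. By wider and narrower definitions, 42 circles of the set were at 0 in control 1 and above 0 in at least 1 other library, and 3 when the mean of the others had to reach 100 SRPBM.

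Signs turned for these log2 differences when each library was left out in turn. The leading Hydin circle ran from -0.32 (without control 1) to 4.82 (without control 2), and the Spag16 circles 69858473 to 69896581 and 69842969 to 69996908 ran from -0.36 to 5.16 and from -0.59 to 2.91, at the same libraries. The Spag17 circle 100119515 to 100125442 ran from -0.27 to 1.56, the Spef2 circle 9625972 to 9653073 from -0.051 to 1.02, the Hydin sum from -0.12 to 0.79, the Spag16 sum from -0.35 to 1.02, the Cfap69 sum from -0.13 to 1.02 and XLOC_110657 from -0.0073 to 0.46, again lowest without control 1 and highest without control 2. The leading circles of Cfap70 and Armc2 ran from -0.31 to 1.36 and from -0.21 to 0.24, and the Cfap70 sum from -0.076 to 1.6, lowest without control 2 and highest without control 1. The Spag17 circle 100100242 to 100125442 ran from -0.55 (without control 2) to 0.55 (without triptolide A), the Spag17 sum from -1.04 (without triptolide B) to 0.11 (without triptolide A), the Spag6 sum from -1.19 (without control 2) to 0.10 (without triptolide A or C) and XLOC_014834 from -0.0045 (without triptolide A) to 0.089 (without control 2). Removing the circles at 0 in control 1, an alternative chosen after seeing the data, turned the Hydin and Spag16 sums to -0.22 and -0.15. The cause was not tested. The 29 single circRNA, host and locus values were refitted under each alternative that applied. Direction and side of the threshold were kept in 250 of these refits. The sign turned in 22, and in the rest a value crossed the threshold. Leaving out a control leaves 1, which is assumed to vary like the triptolide libraries. In simulated data, limma on log2(SRPBM + 16) recovered 0 of 200 circRNAs changed 4-fold, while edgeR on whole reads recovered 144 of the 156 it could test. On the real reads edgeR called 0 of the 952 it tested. The simulation gave no library extra zeros like those of control 1, and why limma called 0 was not tested. No paired analysis was possible because the triptolide columns of the circRNA table carry no number of their own, and the lncRNA columns share fewer than 2 numbers with control.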
